A study of Rattus norvegicus with 71 samples.

Results

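Hypothalamic neuropeptide precursors were followed in 71 rat brain slices taken on postnatal day 2 (PND2). The members are 10 genes chosen by symbol, Oxt, Avp, Trh, Crh, Ghrh, Gal, Pomc, Agrp, Hcrt and Pmch, out of 17494 genes in the count table. The rule uses their symbols and no measured value. All animals were wild-type Sprague-Dawley offspring, and each gave 1 coronal slice about 150 µm thick and 1 poly-A library.

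Dams of the control offspring received adjuvant and saline, and these controls number 24 animals from 7 litters. The other 47 animals, from 20 litters, were exposed in the womb to maternal autoantibodies of the kind associated with autism (MARA-ABS). Their dams made these after injections of antigen peptides with Freund's adjuvant, so adjuvant was given in all groups. Each pattern takes its name from those antigens. CRMP1+CRMP2 (collapsin response mediator proteins) was carried by 8 animals from 4 litters, and LDHA/B+CRMP1+STIP1 (lactate dehydrogenase, CRMP1 and a stress-induced phosphoprotein) by 25 animals from 9 litters. CRMP1+GDA (with guanine deaminase) had 6 animals from 3 litters, and STIP1+NSE (with neuron-specific enolase) had 8 animals from 4 litters. There were 35 males and 36 females. The controls split into 12 animals of batch 1 and 12 of batch 2. LDHA/B+CRMP1+STIP1 had 16 animals in batch 1 and 9 in batch 2, and the other 3 patterns lay in batch 2 alone. Exposure was given to the dam, so littermates share it, and p-values over animals take littermates as independent unless the litter is named as a term. The descriptions of the tissue disagree. One names frontal cortex and hypothalamus, and the other names the hippocampus with the cortex and subcortex beside it, so how much hypothalamus a slice holds has to be read from the libraries.

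Neuropeptide precursors are long chains that are cut and modified inside secretory granules. Oxytocin (Oxt) and vasopressin (Avp) are made by large cells of the paraventricular and supraoptic nuclei and carried to the posterior pituitary, and Avp is also made in the suprachiasmatic nucleus. Releasing hormones (Trh, Crh, Ghrh) reach the anterior pituitary, Pomc and Agrp come from opposing feeding cells of the arcuate nucleus, and orexin (Hcrt) and melanin-concentrating hormone (Pmch) from the lateral hypothalamus. Galanin (Gal), Trh and Crh are also made outside the hypothalamus. Each nucleus is small, so a thin slice can hold it or miss it.

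Oxt and Avp are neighbours in the rat genome and the results turn on them most, so their upstream sequences are shown. In the count table's build, rn7, Oxt lies on the plus strand at chr3:117782650-117783489 and Avp on the minus strand at chr3:117793447-117795425, with 9957 bases between their 3′ ends. Both genes have 3 exons, and the second exon is 202 bases long in each. That exon holds the neurophysin part shared by both precursors, so reads from it could be given to the wrong gene or dropped, and the split between Oxt and Avp is uncertain to that extent. The 250 bases before each start site are printed from RefSeq, build GRCr8, from 5′ to 3′ on the gene's own strand. Oxt is chr3:138235504-138235753 (plus) and Avp is chr3:138248523-138248772 (minus). Capitals mark 3 motifs, each searched on either strand, and no match overlaps another. TGACC holds the core letters of sites for nuclear hormone receptors. The E-box CACGTG is known for binding clock proteins. CATAAA is the variant of the box that places the start of transcription.

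Oxt: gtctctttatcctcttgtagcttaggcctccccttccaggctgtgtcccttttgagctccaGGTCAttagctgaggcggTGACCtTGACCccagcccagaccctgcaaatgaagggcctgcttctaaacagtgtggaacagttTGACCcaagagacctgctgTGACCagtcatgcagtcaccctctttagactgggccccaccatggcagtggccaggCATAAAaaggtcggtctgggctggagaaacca
Avp: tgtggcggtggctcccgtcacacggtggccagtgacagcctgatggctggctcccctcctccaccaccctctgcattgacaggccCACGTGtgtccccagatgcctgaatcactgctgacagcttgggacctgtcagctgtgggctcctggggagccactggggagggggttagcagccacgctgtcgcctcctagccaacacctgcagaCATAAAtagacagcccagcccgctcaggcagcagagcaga

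The Oxt sequence held 5 matches to TGACC, 189, 171, 165, 107 and 88 bases before the start, and the Avp sequence held 0. TGACC on either strand was found in 35.4% of the 33469 promoters of this length. CACGTG stood 165 bases before the Avp start and in 5.59% of all promoters, and the Oxt sequence held 0 copies. CATAAA stood 32 bases before the Oxt start and 40 before the Avp start, and in 11.4% of all promoters. Of the 10 members, 8 had an entry in this table (Crh and Pmch did not). These are matches of letters and not sites of binding.

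Avp had the highest mean level of the precursors per base of exon, 14.5 RPKM (counts per kilobase of exon, scaled to library size, mean of 71 animals). Oxt followed with a mean of 5.4 RPKM, then Crh with 3.67, Pomc with 3.12, Trh with 2.45 and Gal with 2.21 RPKM. Agrp (0.706 RPKM), Hcrt (0.697) and Ghrh (0.613) were lowest among the detected members. Medians gave another order. High values raised the means, for Oxt in several animals and for Pomc mainly in 1 animal, at 80.5 RPKM. The median was 4.46 RPKM for Avp, 3.76 for Crh, 2.33 for Trh, 2.17 for Gal, 1.48 for Pomc and 0.860 for Oxt. Pmch was listed at 0 in every one of the 71 animals. With 2050191063 counts in all, 0 counts allow a pooled level of up to 0.00146 CPM (a gene's counts over the library's total, the usual unit of bulk libraries), for counting error only. Loss of Pmch reads in alignment or counting was not tested, so the bound holds only for reads that could be counted. One library of the usual depth could have shown 3 counts at 0.0828 to 0.121 CPM. The ranges of neighbouring genes in these orders overlapped from animal to animal, and only Pmch lacked a count in every library.

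The labels and the tissue were read first from marker genes. Eif2s3y, a Y-linked translation factor gene, lay between 49.1 and 90.2 CPM in the 35 males and between 0 and 1.24 CPM in the 36 females. Of 14 genes listed as hypothalamus markers (transcription factors such as Nkx2-1, Otp, Sim1 and Fezf1), 12 were in the table and all 12 were detected. Their summed level ran from 2.03 to 96.1 CPM, with a median of 13.2 CPM in batch 1 and 50.8 CPM in batch 2. The summed level of 9 thalamus markers was 97.9 to 263 CPM in batch 1 and 138 to 1385 CPM in batch 2, and that of 9 cortex and hippocampus markers was 1543 to 2392 and 777 to 2125 CPM. The summed level of 6 choroid plexus markers was 3.06 to 563 CPM in batch 1 and 123 to 3297 CPM in batch 2. Nkx2-1, which ventral forebrain cells also express, was found in every slice (1.70 to 24.5 CPM), while Otp was at 0 in 20 of 71, Sim1 in 14 and Fezf1 in 13. Hypothalamic markers were thus unequal between slices, and several were at 0 in some of them. In such bulk samples, fewer cells of a type and less RNA per cell cannot be told apart.

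Oxt was the most uneven of the precursors by the standard deviation of log2 CPM, which was 2.74 over all animals. Oxt was at 0 in 18 of 71 animals, 14 of them in batch 1, and over 1 CPM in 29. Hcrt was at 0 in more animals, 28 of 71. Among controls of batch 1, the lowest, median and highest values were 0, 0.178 and 3.34 CPM, and among LDHA/B+CRMP1+STIP1 animals of batch 1 they were 0, 0 and 5.67 CPM. In batch 2 the controls ran from 0 through a median of 3.81 to 12.3 CPM. The 8 CRMP1+CRMP2 animals ran from 0 through 0.410 to 8.50 CPM, and the 9 LDHA/B+CRMP1+STIP1 animals from 0.271 through 3.95 to 7.68 CPM. The 6 CRMP1+GDA animals ran from 0 through 1.67 to 16 CPM and the 8 STIP1+NSE animals from 0 through 4.69 to 16.4 CPM. Within batch 2 the medians thus rank STIP1+NSE, LDHA/B+CRMP1+STIP1, control, CRMP1+GDA and CRMP1+CRMP2, and the range of each group overlapped that of every other. The counts behind these values were 0 to 568 per animal.

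Avp was found in all 71 animals and followed the same order in part. Batch 1 controls had a lowest, median and highest level of 0.562, 1.08 and 5.43 CPM, and batch 1 LDHA/B+CRMP1+STIP1 animals 0.160, 0.850 and 6.78 CPM. In batch 2 the controls had 0.683, 14 and 35.3 CPM. CRMP1+CRMP2 had 0.305, 2.48 and 18.7 CPM, and LDHA/B+CRMP1+STIP1 had 0.850, 7.88 and 29.6 CPM. CRMP1+GDA had 0.334, 13.3 and 34.3 CPM and STIP1+NSE 0.381, 21 and 32 CPM. CRMP1+CRMP2 was again lowest by median within batch 2, and all ranges overlapped.

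**Figure D1:**
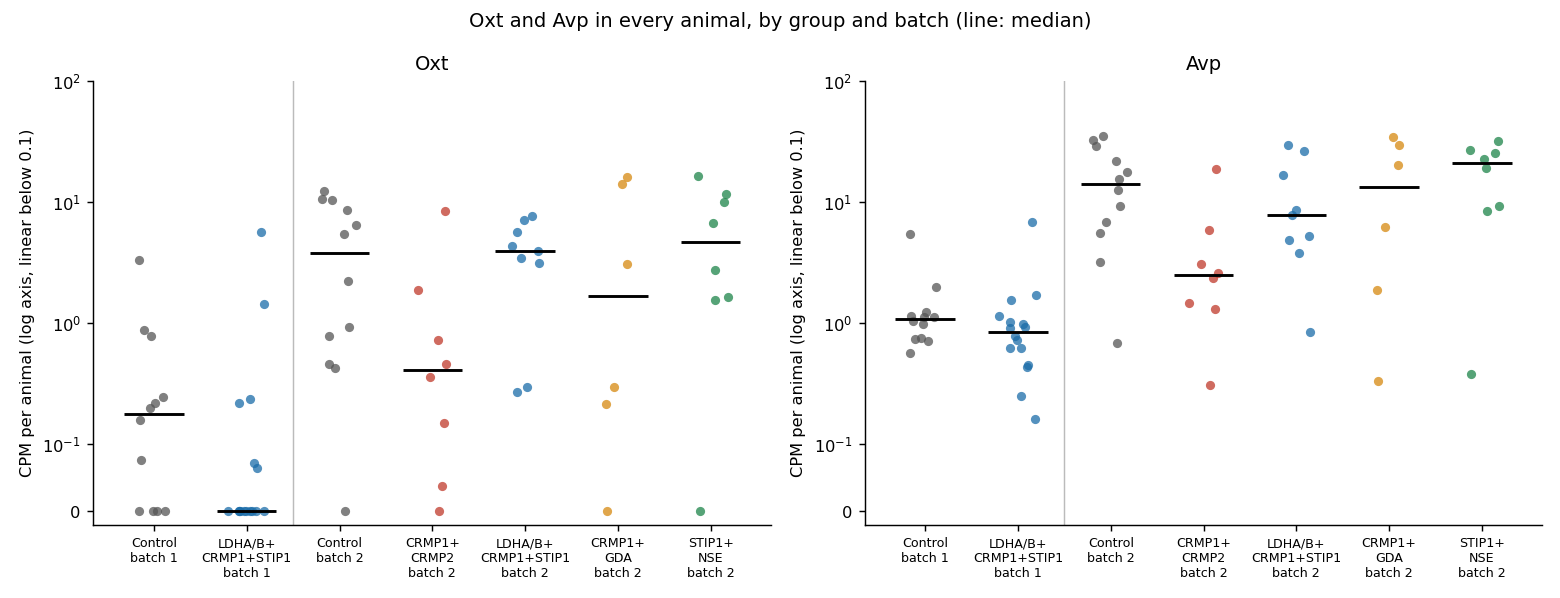
CPM of Oxt (left) and Avp (right) on a log axis that is linear below 0.1, with 1 point per animal, columns for the 7 combinations of group and batch, and a line at each median. Oxt lies at 0 in 14 of the 28 batch 1 animals and in 4 of the 43 batch 2 animals, and Avp is above 0 in every animal.

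The releasing hormone precursors kept to narrower ranges. Crh was over 1 CPM in all 71 animals and had its lowest group median in CRMP1+CRMP2, 3.15 CPM (1.59 to 4.6), and its highest in batch 1 LDHA/B+CRMP1+STIP1, 5.51 CPM (3.26 to 6.53). Trh had medians of 1.88 CPM (0.393 to 8.05) in batch 1 controls and 1.94 CPM (0.196 to 4.84) in batch 1 LDHA/B+CRMP1+STIP1. In batch 2 the Trh medians were 4.78 CPM (1.25 to 8.62) in LDHA/B+CRMP1+STIP1, 6.06 CPM (0.334 to 9.09) in CRMP1+GDA and 4.57 CPM (1.28 to 7.24) in STIP1+NSE. Ghrh, the precursor of growth hormone-releasing hormone from the arcuate nucleus, ran from 0 through 0.328 to 1.12 CPM over all animals, with group medians between 0.177 and 0.504 CPM that had no order by batch. The ranges of all groups overlapped for each of these 3 genes.

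The Gal and Pomc medians of every batch 2 group were above those of both batch 1 groups, and Hcrt was at or near 0 in batch 1. Gal had medians of 0.780 and 0.770 CPM in the batch 1 groups and 1.34 to 2.48 CPM in the 5 batch 2 groups, lowest in CRMP1+CRMP2 and highest in CRMP1+GDA. Pomc medians were 0.907 and 0.950 CPM in batch 1 and 1.73 to 3.28 CPM in batch 2, again lowest in CRMP1+CRMP2 and highest in CRMP1+GDA. Hcrt, whose peptides keep animals awake, was at 0 in 14 of 16 LDHA/B+CRMP1+STIP1 animals of batch 1, where the highest value was 0.130 CPM. In batch 2 its median was highest in STIP1+NSE, 0.925 CPM (0 to 1.33), and lowest in CRMP1+CRMP2, 0.0665 CPM (0 to 1.66), with 0.554 CPM (0 to 1.94) in controls. Agrp ran from 0.0381 through 0.416 to 1.44 CPM over all animals, and its group medians lay between 0.260 and 0.686 CPM in both batches.

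**Figure D2:**
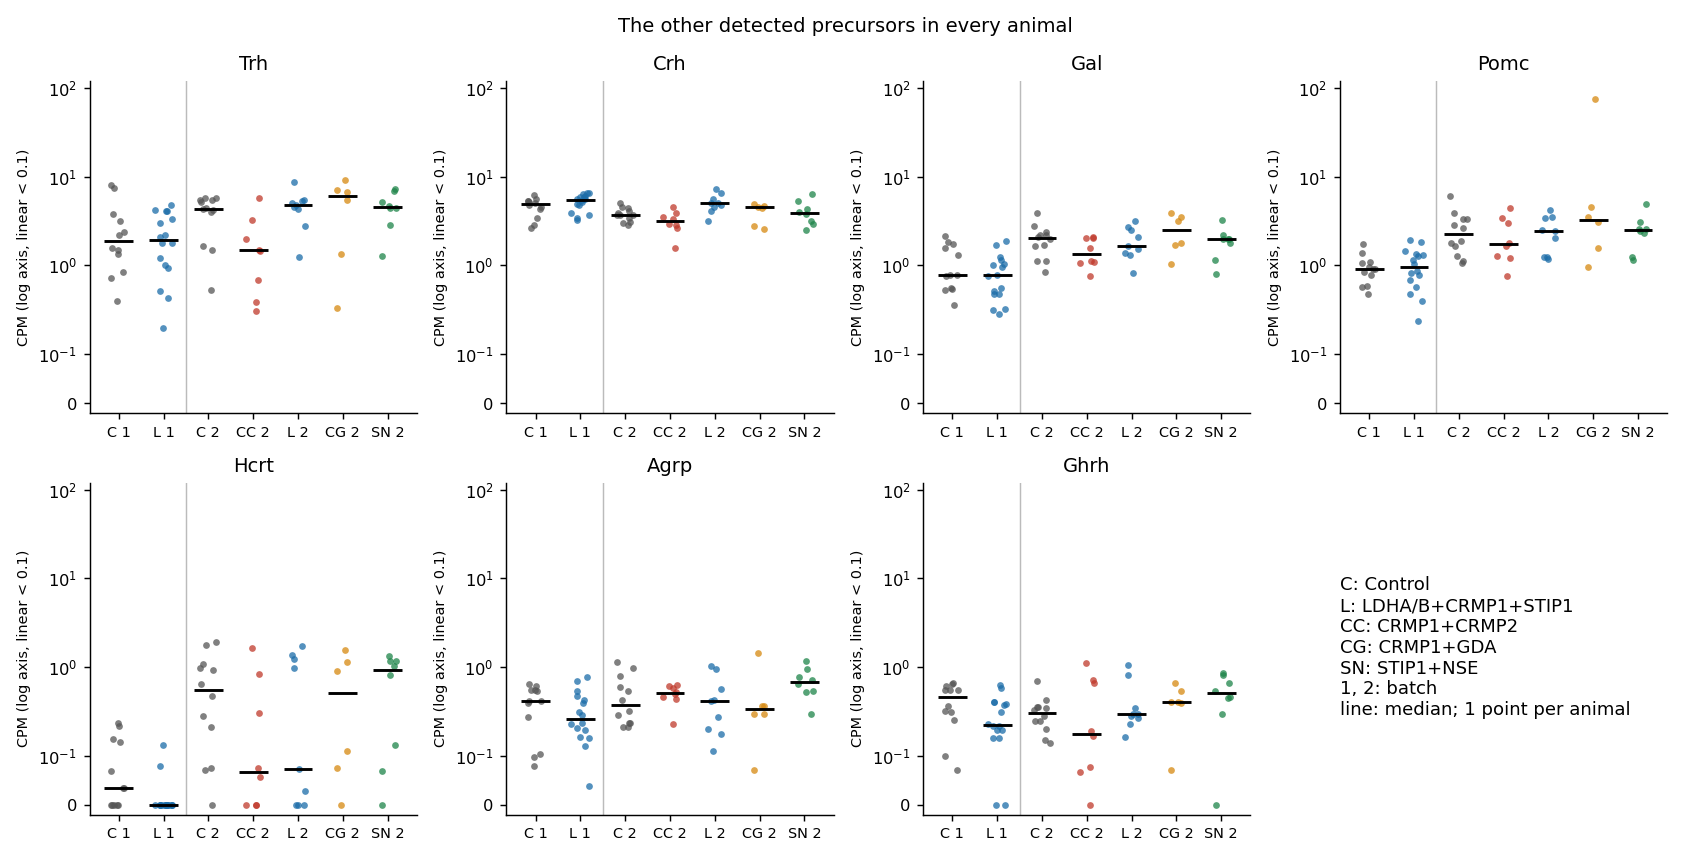
CPM of the 7 other detected precursors on log axes that are linear below 0.1, with 1 point per animal, columns for group and batch, and a line at each median. Crh keeps to 1.59 to 7.30 CPM in every animal, Hcrt is at or near 0 in batch 1, and 1 CRMP1+GDA animal stands at 75 CPM of Pomc.

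Littermates differed widely in most of these genes. On the log2 CPM scale (TMM scaling, prior count 2), the standard deviation of Oxt within litters was 2.14 and that over all animals of a group and batch, littermates included, was 2.19. For Avp these were 1.42 and 1.55, for Pomc 0.83 and 0.91, for Trh 1.23 and 1.18, and for Crh 0.36 and 0.37. In litter 9_12 of STIP1+NSE, 1 animal had 1.63 and the other 16.4 CPM of Oxt. Of the 26 litters with more than 1 animal, 11 held animals on both sides of 1 CPM for Oxt, and 11 did for Avp. In 1 control litter of batch 2, the 4 sisters had Oxt at 0.421, 12.3, 0 and 6.5 CPM and Avp at 6.78, 29.1, 0.683 and 17.8 CPM.

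Oxt and Avp went together from slice to slice, although slices with Avp and little Oxt were common. Both were over 1 CPM in 28 animals, Avp without Oxt in 22, neither in 20 and Oxt without Avp in 1, a LDHA/B+CRMP1+STIP1 animal of batch 2. In batch 1 only 3 of 28 animals had both over 1 CPM, and in batch 2 25 of 43 did. Across the 26 animals of batch 2 with at least 30 Oxt counts, there were 0.274 to 7.04 Avp counts per Oxt count, with a median of 2.75. Within batch 2 (43 animals) Pearson's r of log2 CPM was 0.87 and Spearman's rho 0.88 (permutation p = 1e-05 for each, the smallest that 100000 resamples can give, adjusted p = 7.5e-05 over 45 relations). Without the 2 animals farthest from the Oxt median r was 0.84. In batch 1 (28 animals) r was 0.66 (permutation p = 0.00024, adjusted p = 0.0054) and rho 0.43 (permutation p = 0.023, adjusted p = 0.096). Without its 2 farthest animals r was 0.29, so the size of r in batch 1 depends largely on those 2 slices.

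**Figure D3:**
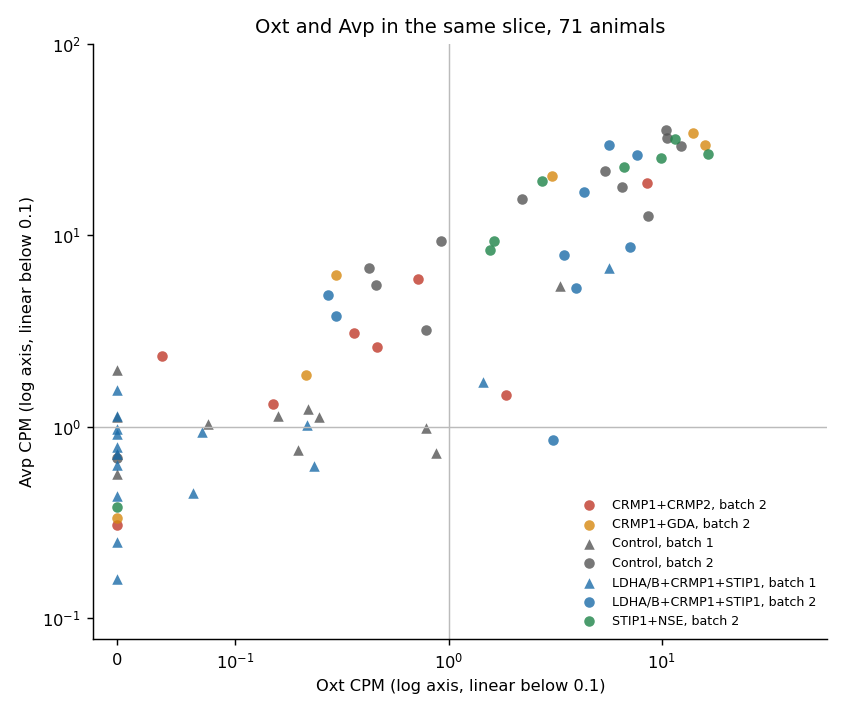
Avp CPM (vertical) against Oxt CPM (horizontal), both on log axes that are linear below 0.1, with 1 point per animal, coloured by group, triangles for batch 1 and circles for batch 2. Grey lines mark 1 CPM; 28 of 71 animals lie over both lines and 22 over the Avp line alone.

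Trh, the precursor of thyrotropin-releasing hormone, joined this pair in batch 2, with an r of 0.74 with Oxt, 0.73 with Avp and 0.71 with Gal (permutation p = 1e-05 and adjusted p = 7.5e-05 for each). Spearman's rho was 0.69, 0.68 and 0.66. In batch 1 the r of Trh with Oxt was 0.46 (permutation p = 0.013, adjusted p = 0.053) and with Avp 0.43 (permutation p = 0.022, adjusted p = 0.071). The mean log2 CPM of the 12 hypothalamus markers, used as a score, went with Trh in both batches, with an r of 0.80 in batch 1 (adjusted p = 0.00045) and 0.69 in batch 2 (adjusted p = 0.00019, permutation tests). Gal went with this score at r = 0.50 and 0.66 (adjusted p = 0.041 and 7.5e-05) and Avp at r = 0.57 and 0.50 (adjusted p = 0.013 and 0.0023, permutation tests), although by rho Avp passed in neither batch (adjusted p = 0.12 and 0.065) and Gal not in batch 1 (adjusted p = 0.089). For Pomc r was 0.44 in batch 1, which did not pass (adjusted p = 0.071, permutation test), and 0.46 in batch 2 (adjusted p = 0.0079). Hcrt went with it at r = 0.67 in batch 2 (adjusted p = 7.5e-05, permutation test), but in batch 1, where Hcrt was at 0 in 19 of 28 animals, r was -0.11. For Oxt the score gave r = 0.64 in batch 1 and 0.31 in batch 2 (adjusted p = 0.01 and 0.072, permutation tests), with a rho of 0.37 and 0.12.

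By r, Crh, Agrp and Ghrh passed with none of the other detected members in batch 2. Ghrh had an r between 0.02 and 0.35 with the other 8, while by rho those with Pomc and Agrp passed (adjusted p = 0.02 and 0.034, permutation tests). With the hypothalamus score the r of Ghrh was 0.50 (rho 0.46, adjusted p = 0.0032 and 0.01, permutation tests). In batch 1 it was 0.22 (adjusted p = 0.41, permutation test). Agrp had an r between -0.11 and 0.32 with the other 8 and of 0.04 with the hypothalamus score, and 0 of these passed by r, while by rho those with Pomc and Ghrh did (adjusted p = 0.037 and 0.034, permutation tests). Crh, the corticotropin-releasing hormone precursor, also made by cortical interneurons, had an r between -0.34 and 0.24 with each of the other 8 detected members in batch 2. By rho Crh passed with Hcrt (rho -0.37, adjusted p = 0.035, permutation test). The r of Crh with the hypothalamus score was -0.37 (rho -0.48, permutation p = 0.016 and 0.0012, adjusted p = 0.041 and 0.0056). In batch 1 that r was -0.15 (permutation p = 0.45). Over all 45 relations, 10 passed an adjusted p under 0.05 by r in batch 1 and 18 in batch 2. These animals include littermates, which the permutations treat as independent.

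**Figure D4:**
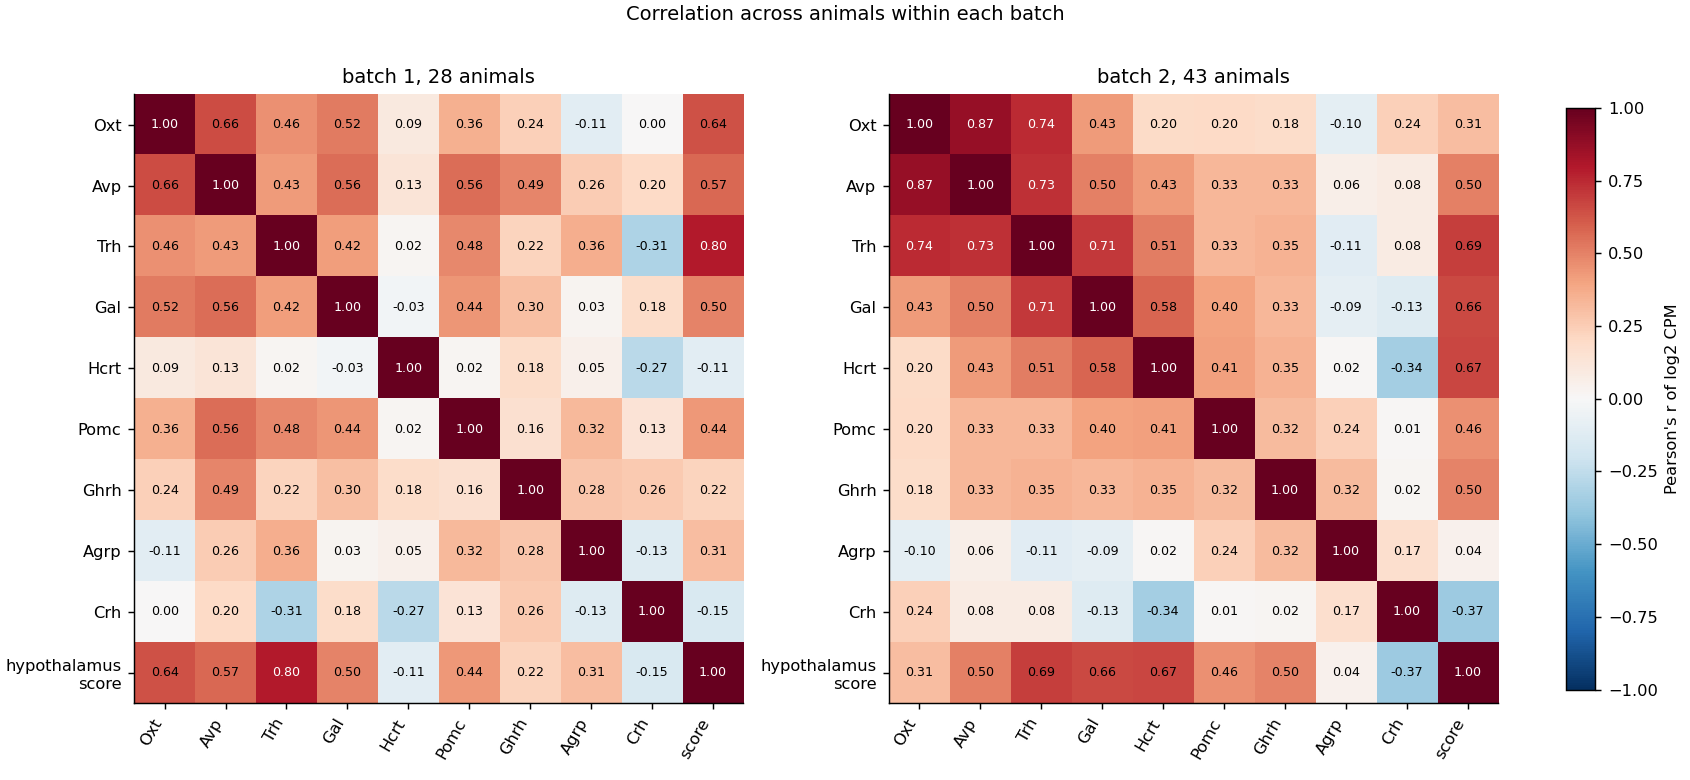
Pearson's r of log2 CPM across animals for each pair of detected members and the score of 12 hypothalamus markers, in batch 1 (left, 28 animals) and batch 2 (right, 43 animals), with the value printed in each square. Oxt, Avp and Trh form a block at 0.73 to 0.87 in batch 2, and Crh lies between -0.37 and 0.24 with the rest.

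Genes outside the members were ranked by the mean of their 2 within-batch rho with each member, among 12470 genes. The genes most like Oxt were Shh (mean rho 0.56), Otp (0.55), a transcription factor needed for neuroendocrine cells, and Slc35g2 (0.54). Otp (0.60) and Fezf1 (0.58), a hypothalamic transcription factor, led for Gal, and Tsc22d4 (0.58) followed. For Trh the leaders were Ecel1 (0.79), Gad1 (0.75), which makes GABA, and Vax1 (0.75), a ventral forebrain transcription factor. For Avp they were Cspg5 (0.63), Atp6v0c (0.63) and Cox8a (0.62), and for Pomc Atp6v1b2 (0.58), Timm22 (0.57) and Ccdc184 (0.56). For Crh they were Lhx2 (0.59), a transcription factor of the cortical plate, Max (0.53) and Rnf41 (0.53). Hcrt was led by Rflnb (0.58), Pkm (0.51) and RGD1304884 (0.51), Ghrh by Enpp5 (0.52), Tmem30a (0.52) and Pdk2 (0.51), and Agrp by Fbxo36 (0.40), Kcne5 (0.39) and Rgs4 (0.38). These are descriptions, chosen as the highest of many values.

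The controls of the 2 batches show how far these genes move without any exposure. In batch 2 controls, 5 of the 7 members tested were higher than in batch 1 controls and 1 was lower, beside 41.5% of all 12565 genes called in this comparison at a false discovery rate (FDR) under 0.1 and 43.5% at an unadjusted p under 0.05. Avp rose by 3.48 on the log2 scale (SE 0.50, adjusted p = 1.16e-05, edgeR with sex in the model) and 1 of the 12 batch 2 controls, at 0.683 CPM, lay below the batch 1 median. Oxt rose by 3.58 (SE 0.88, adjusted p = 0.00288) with overlapping ranges. Hcrt rose by 3.21 (SE 0.68, adjusted p = 0.000653), from 0 to 0.236 CPM in batch 1 to 0 to 1.94 CPM in batch 2, and at 0 to 6 counts per animal in batch 1 its fold is poorly fixed. Pomc rose by 1.35 (SE 0.26, adjusted p = 0.000289), from a median of 0.907 to 2.27 CPM, and Gal by 0.86 (SE 0.28, adjusted p = 0.0181), from 0.780 to 2.04 CPM. Crh fell by 0.30 (SE 0.14, adjusted p = 0.0977), from a median of 4.88 to 3.72 CPM, and this call was lost without any 1 of the control litters 9_5, 9_10, 9_25, IgG2 and RNA4 (adjusted p = 0.104 to 0.436). Trh, at 1.88 and 4.37 CPM by median, had a difference of 0.54 (SE 0.42, adjusted p = 0.344).

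These controls come from 3 litters in batch 1 and 4 in batch 2. When litter was fitted as a random effect in limma, 2 of the 7 members were past the threshold beside 22.5% of genes, Avp at 3.27 (adjusted p = 0.0938) and Pomc at 1.42 (adjusted p = 0.0224). Oxt was then at 3.32 (adjusted p = 0.305). The hypothalamus markers moved with the batch too, 8 of 11 tested being higher and 0 lower with a median log2 difference of 3.96, against 0.00 for all genes. With the hypothalamus score added to the model, chosen after seeing the data, 1 of the 7 members was called beside 11.5% of genes. That member was Trh, which fell by 2.04 (adjusted p = 0.00859), while Oxt stood at 0.42 (adjusted p = 0.901) and Avp at 1.25 (adjusted p = 0.476). The summed markers were 2.03 to 34.1 CPM in batch 1 controls and 9.07 to 84.8 CPM in batch 2 controls, so the shares of batch and slice content in the difference cannot be told apart.

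Exposure to MARA-ABS as a whole called 0 of the 7 members tested, beside 0.0321% of 12477 genes at FDR under 0.1. At an unadjusted p under 0.05 it called 0 members, beside 10.3% of genes, and DESeq2 called 0 members at FDR under 0.1, as it did for LDHA/B+CRMP1+STIP1, CRMP1+GDA, STIP1+NSE and sex. Agrp, Ghrh and Pmch did not reach 1 CPM in 8 animals and were not tested. Oxt ran from 0 through a median of 0.360 to 16.4 CPM in the 47 exposed animals and from 0 through 0.619 to 12.3 CPM in the 24 controls, with a log2 difference of 0.03 (SE 0.50, adjusted p = 0.99). An approximate 95% interval of that difference reached from -0.95 to 1.00. The sign did not hold, with -0.15 in DESeq2, -0.12 with batch and sex as covariates, -0.20 in batch 2 alone and -0.16 with the hypothalamus score. Litter as a random effect gave -1.14 (adjusted p = 0.939, limma), below that interval, but this fit changes the model as well as adding litter. For Avp the edgeR difference was -0.16 (interval -0.84 to 0.51). The largest differences were those of Hcrt, -0.66 (SE 0.44, adjusted p = 0.606), and Pomc, 0.61 (SE 0.33, adjusted p = 0.508).

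Trh was lower in CRMP1+CRMP2 animals, and it was the 1 member called in any pattern. Its lowest, median and highest values were 0.305, 1.48 and 5.74 CPM in the 8 animals. All 24 controls ran from 0.393 through 3.47 to 8.05 CPM, and the 12 controls of batch 2, the batch of this pattern, from 0.532 through 4.37 to 5.81 CPM. One CRMP1+CRMP2 animal, at 5.74 CPM, lay above the control median of its batch and the other 7 lay below it. Trh fell by 1.33 on the log2 scale (SE 0.44, adjusted p = 0.0684, edgeR with 1 surrogate variable). In this comparison 11.4% of 12691 genes were called, so 1 of 7 members tested is near the share of all genes. At an unadjusted p under 0.05, 2 of 7 members passed, Trh and Crh, beside 24.4% of genes. Against the batch 2 controls alone Trh fell by 1.18 (SE 0.50, adjusted p = 0.207), where 1.01% of genes were called, and with litter as a random effect in limma by 1.23 (adjusted p = 0.343). With batch and sex in place of the surrogate variable Trh fell by 1.21 (adjusted p = 0.199). The call also did not hold without litter 9_6 (adjusted p = 0.427) or litter 9_11 (adjusted p = 0.149).

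Oxt and Avp had the lowest medians of batch 2 in the same CRMP1+CRMP2 animals but were not called. The log2 differences were -1.07 for Oxt (SE 0.83, adjusted p = 0.43) and -0.87 for Avp (SE 0.56, adjusted p = 0.338). One male of litter 9_1, at 8.50 CPM of Oxt and 18.7 CPM of Avp, was above the batch 2 control medians, and the other 7 animals were below both, at 0 to 1.86 CPM and 0.305 to 5.90 CPM. Without litter 9_1, 4 of 7 members were called beside 11.8% of genes: Oxt at -2.82 (adjusted p = 0.0735), Avp at -2.74 (adjusted p = 0.00802), Trh at -1.65 (adjusted p = 0.035) and Crh at -0.43 (adjusted p = 0.0836). That litter holds the highest Oxt and Avp values of the pattern, so leaving it out lowers both by construction. Without litter 9_6, 9_11 or 9_16, 0, 0 and 1 members were called, beside 0.324%, 6.31% and 22.8% of genes. With batch and sex as covariates Avp fell by 1.90 (adjusted p = 0.0923, the 1 member called, beside 3.87% of genes) and Oxt was at -2.02 (adjusted p = 0.239). With litter as a random effect Oxt was at -2.68 and Avp at -2.10 (adjusted p = 0.355 and 0.206, limma), and against batch 2 controls alone the Avp difference was -1.88 (adjusted p = 0.163). The summed hypothalamus markers were 15.7 to 73.5 CPM (median 42.2) in these animals and 9.07 to 84.8 CPM (median 52.1) in the batch 2 controls. Of these markers 2 of 12 tested were higher, Lmx1a and Rax (1.99 and 2.21 on the log2 scale, adjusted p = 0.00816 and 0.0472), and 0 lower, with a median of -0.28. With the hypothalamus score in the model Trh fell by 1.21 (adjusted p = 0.0802). Choroid plexus markers summed to 184 to 3297 CPM in these animals and 123 to 2896 CPM in the batch 2 controls, and pineal markers to 3.17 to 249 and 2.73 to 6.58 CPM. Thalamus markers summed to 138 to 1311 CPM (median 855) against 472 to 1246 CPM (median 1059), with 0 of 9 called. Cortex and hippocampus markers summed to 939 to 2125 CPM against 1119 to 1586 CPM, with 2 of 9 called higher and 0 lower. Their part in the Trh difference was not tested.

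Some genes that cut or bind these peptides were lower in the same comparison. Of 11 listed processing genes tested, 4 were lower and 0 higher, beside 11.4% of all genes called, with a median log2 difference of -0.20 against 0.01 for all genes. Pcsk1n, an inhibitor of proprotein convertase, fell by 0.35 (SE 0.08, adjusted p = 0.0126), and Cpe, the carboxypeptidase that trims cut peptides, by 0.21 (SE 0.05, adjusted p = 0.0215). Crhbp, the binding protein of Crh, fell by 0.74 (SE 0.21, adjusted p = 0.0411) and Scg5, a chaperone of a proprotein convertase, by 0.35 (SE 0.11, adjusted p = 0.0507). Among 17 other peptide precursors tested, 2 were lower, Sst (by 0.53, adjusted p = 0.066) and Cck (by 0.39, adjusted p = 0.0687), and 0 higher. Of 12 receptors and 12 transcription factors of these lineages tested, 0 passed FDR under 0.1 and 2 and 1 an unadjusted p under 0.05. The genes called in this comparison were 1445 in all, but 33 with litter as a random effect and 127 against batch 2 controls alone, and the lists were not tested in those fits. In the other 3 patterns and in the exposed animals as a whole, 0 genes of these 4 lists passed FDR under 0.1.

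LDHA/B+CRMP1+STIP1 was the one pattern present in both batches, and it called 0 of 8 members tested, beside 0.0157% of 12700 genes. Crh was 1 of 8 at an unadjusted p under 0.05 (7.17% of genes). It ran from 3.14 through 5.13 to 7.30 CPM in the 25 animals and from 2.63 through 4.21 to 6.19 CPM in the controls, with a log2 difference of 0.26 (SE 0.09, p = 0.00652 and adjusted p = 0.436, edgeR). Within batch 2 the Crh difference was 0.42 (SE 0.14, adjusted p = 0.872, with 0% of genes called). Within batch 1 the medians were 5.51 CPM in exposed animals and 4.88 CPM in controls, and 0.0161% of genes were called there. Oxt differed by 0.19 (SE 0.52, adjusted p = 0.97) but by -0.32 within batch 2 and -0.14 within batch 1, and it was also below 0 in DESeq2, with litter and with batch and sex as covariates. Avp differed by -0.16 (SE 0.30, adjusted p = 0.962). The test of whether the effect differed between batches called 0 of 8 members (0.11% of genes at FDR under 0.1), and 0 at an unadjusted p under 0.05 (3.05% of genes). The largest such difference was that of Hcrt, 1.78 (SE 1.20).

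CRMP1+GDA held the highest Pomc value of the series. Its 6 animals had 4.50, 75, 0.965, 3.51, 3.05 and 1.57 CPM, against 0.473 to 6.04 CPM in the 24 controls, so 1 female of litter 9_3 lay far above all others and the other 5 within the control range. Pomc, whose product yields ACTH and melanocortins in the pituitary as well as in arcuate cells, differed by 2.42 (SE 0.57, p = 0.000182, adjusted p = 0.547, edgeR). Of the 8 members tested 0 were called, as were 0% of all 12641 genes, and 1 of 8 (Pomc) passed an unadjusted p under 0.05 beside 3.65% of genes. Without that animal the difference was -0.07 (adjusted p = 1) and without its litter -0.39 (adjusted p = 0.953). Pomc was called without litter 9_8 (3.01, adjusted p = 0.0382) or litter 9_18 (2.95, adjusted p = 0.0876), where the same animal is 1 of 4, beside 0.0159% and 0.00793% of genes. Against batch 2 controls alone 0.00798% of genes were called and 0 members. That animal also ranked first for Trh (9.09 CPM), second for Avp (34.3 CPM) and the third for Oxt (14 CPM) among the 71. Of 11 pituitary markers it ranked first for Fshb (8 counts) and second for Cga, Prl and Pitx1 (74, 4 and 21 counts), while Pou1f1 was at 2 counts. The summed pituitary markers ran from 4.16 to 21.5 CPM in CRMP1+GDA and from 3.55 to 21.9 CPM in batch 2 controls. Their part in the Pomc value was not tested.

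STIP1+NSE had the highest medians of Oxt and Avp in batch 2, and 0 of 8 members were called, beside 0.0474% of 12660 genes. At an unadjusted p under 0.05 it called 0 of 8, beside 3.19% of genes. The log2 difference was 0.44 for Oxt (SE 0.70, adjusted p = 1) and 0.32 for Avp (SE 0.45, adjusted p = 1), and with litter as a random effect these were -0.34 and -0.30. One male of litter 9_7, with 0 CPM of Oxt and 0.381 CPM of Avp, was below the other 7 animals, whose values were 1.56 to 16.4 and 8.36 to 32 CPM. Agrp, the appetite-raising antagonist of melanocortin receptors, had its highest median here, 0.686 CPM against 0.375 CPM in batch 2 controls, with a difference of 0.42 (SE 0.36, adjusted p = 1). Against batch 2 controls alone 0% of genes were called. All 4 patterns share the same 24 controls, so their differences are not independent of each other.

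**Figure D5:**
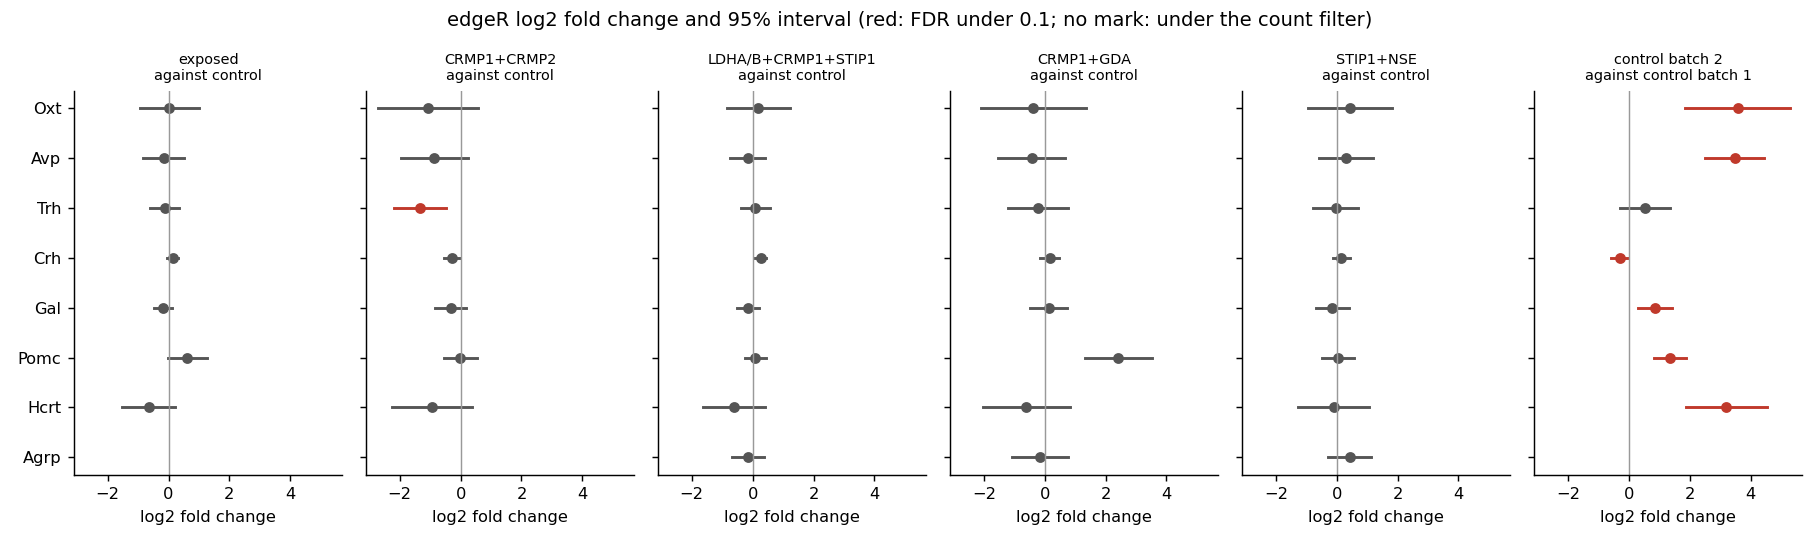
Log2 fold change (point) with approximate 95% interval (bar) of each tested member in 6 comparisons, red where FDR is under 0.1 in edgeR. The 6 red members of the control batch comparison stand beside 1 red member, Trh in CRMP1+CRMP2, over the 5 exposure comparisons.

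Males and females did not differ past the threshold in any member. Of 7 tested, 0 were called at FDR under 0.1 (0.0641% of 12477 genes) and 0 at an unadjusted p under 0.05 (4.69% of genes). Oxt ran from 0 through 0.788 to 16.4 CPM in males and from 0 through 0.283 to 16 CPM in females, with a log2 difference, males minus females, of 0.96 (SE 0.55, adjusted p = 0.987) and an interval from -0.13 to 2.04. With litter as a random effect the differences were -0.27 for Oxt and -0.74 for Avp (adjusted p = 0.946 and 0.671, limma). Both lay below the intervals of the edgeR fit (-0.46 to 0.86 for Avp), which differs in model as well as in litter. The test of whether exposure acted differently in males and females called 0 of 7 members and 0% of genes. At an unadjusted p under 0.05 it held 1 member, Pomc, at -1.53 (SE 0.63, p = 0.0183 and adjusted p = 0.999, edgeR), beside 3.54% of genes. The animal at 75 CPM of Pomc is 1 of the 24 exposed females.

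Receptors and processing genes are given beside the 41.5% of all genes called between control batches. Crhr1 and Galr2, receptors of Crh and galanin, had the highest mean levels of 16 listed receptors in the table, 9.10 and 10.8 RPKM. Oxtr, the receptor of oxytocin, was found in every animal, at 1.31 to 19.97 CPM. Between control batches 7 of 12 receptors tested were higher and 1 lower in batch 2, led by Hcrtr1 (1.55, adjusted p = 0.000436), Galr2 (0.33, adjusted p = 0.00057), Galr1 (1.71, adjusted p = 0.000865) and Mchr1 (0.99, adjusted p = 0.000986), while Mc4r fell by 0.81 (adjusted p = 0.00144). Cpe and Pcsk1n were the most abundant processing genes, at a mean of 504 and 440 RPKM. Of 11 processing genes 5 were higher and 0 lower, a share near that of all genes, led by Pcsk1n (0.48, adjusted p = 4.74e-06), Pam, the amidating enzyme (0.45, adjusted p = 5.98e-06), Cpe (0.23, adjusted p = 4.83e-05), Pcsk1 (0.80, adjusted p = 0.00278) and Trhde (0.22, adjusted p = 0.0311).

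Most of the other peptide precursors called went down between control batches. Of 16 tested, 9 were lower in batch 2 and 3 higher, with a median log2 difference of -0.80, against 1.35 for the members. The strongest by p were Cartpt (fell by 2.04, adjusted p = 2.21e-05), Tac1 (fell by 1.00, adjusted p = 6.83e-05), Pdyn (fell by 1.20, adjusted p = 0.000144), Grp (fell by 0.89, adjusted p = 0.000202) and Npy (fell by 0.86, adjusted p = 0.000248). Sst and Cck were the most abundant of them, with a mean of 178 and 145 RPKM. Of 12 transcription factors of the precursor lineages, 4 were higher and 2 lower, again near the 41.5% of all genes, with Lhx9 at 4.30 (adjusted p = 1.80e-11), Otp at 5.17 (adjusted p = 2.21e-05), Sim1 at 4.46 (adjusted p = 2.31e-05) and Lhx1 at 2.25 (adjusted p = 0.000113). This list shares Otp, Sim1, Nkx2-1, Hmx2 and Hmx3 with the hypothalamus markers and Lhx9 with the thalamus markers. Pou3f2 fell by 0.75 (adjusted p = 7.83e-05), and it and Arnt2 were the most abundant of this list, with 18.8 and 72.9 RPKM.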

How the data were processed

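Poly-A libraries of 71 PND2 rat coronal slices were sequenced as read pairs. The authors aligned the reads to rn7 with STAR 2.5.4b, per the labels, counted them per gene with featureCounts, and deposited raw counts with summed exon lengths. All columns matched a sample (0 unmapped). Library totals were 24880182 to 36234952 counts (median 28439195). Of 104 member counts between 1 and 9, 77.9% were even, so a count need not be 1 molecule, and floors cover counting error only.

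Genes were tested with edgeR 4.0.16 (quasi-likelihood F test, TMM, robust) in R 4.3.3, with the first surrogate variable (sva 3.50.0) for exposure and each pattern, sex for control batches, group and batch for sex, and both main effects for the interactions. Filters were at least 1 CPM in at least 8 samples (exposure and sex) or over 1 CPM in at least 2 (patterns, batch). Every adjusted p of a gene is Benjamini-Hochberg over all genes tested, from edgeR unless limma 3.58.1 or DESeq2 1.42.0 is named, and calls are at FDR under 0.1. SE is the absolute log2 fold change over the root of F, and intervals are approximate 95%. CPM and RPKM use the library total, and log2 CPM uses TMM and a prior count of 2. Correlation p-values are two-sided permutation tests of 100000 resamples (scipy 1.17.1), adjusted over 45 relations. Batch was read from the title series. Animals are the units of the fits, while exposure was given per dam. P-values are set against the spread between animals and take littermates as independent, except where litter is a term. The genes named are the members, at most 5 called genes per list by smallest p, the 2 with the highest mean RPKM per list, the 3 most alike per member and Eif2s3y. Oxtr, Lmx1a, Rax and the single pituitary genes were named after their values were seen. The members and lists were chosen with earlier results of these data known. The fits were tested on simulated counts of independent animals, with the same dispersion for every gene and no litter effect. Changed genes there lay above a set level, so the test does not show how the fits behave for low or uneven members. Alternatives were median-ratio scaling, no filter, another prior count, DESeq2, litter as a random effect (limma), batch and sex in place of the surrogate variable, single batches and leaving out each litter. The limma fit with litter also differs from edgeR in its model, and limma without litter was not run. The parts of model and litter in a shift between these fits thus cannot be told apart. The hypothalamus score as a covariate and the fit without 1 animal were added after seeing the data.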

Additional observations from a re-analysis of the deposited data

Results flagged for a closer look

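Of 27 groups of values (the 9 detected members in each of the 3 patterns of 6 to 8 animals), 5 held an animal far from the rest by Dixon's test at the 95% level. Chance flags about 1 in 20 groups of independent, normally distributed values. CPM values are skewed and include littermates, so that rate need not hold here. In CRMP1+CRMP2 (8 animals) the highest Oxt value was 8.50 CPM, the next 1.86 CPM, and the highest Avp value was 18.7 CPM, the next 5.90 CPM. Both belong to the same male of litter 9_1, so they are not separate observations. In CRMP1+GDA (6 animals) the highest Pomc value was 75 CPM and the next 4.50 CPM, and the highest Agrp value was 1.44 CPM and the next 0.366 CPM. These 4 values belong to 2 sisters of litter 9_3, 1 with the high Pomc and the other with the high Agrp. In CRMP1+CRMP2 the lowest Agrp value was 0.229 CPM and the next 0.442 CPM.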

How the results depend on the processing

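No paired analysis was possible because replicate numbers only follow the order of the samples, and each dam carries 1 exposure. Most litters held both sexes, and the litter fit of sex uses those differences within litters. Median-ratio scaling moved the median of all genes by less than 0.1 on the log2 scale. Over the members' single values, 402 recalculations were classed as the same, 29 changed sign, 19 lost a call, 1 gained one and 14 moved. For log2 differences, the same means an unchanged direction and side of the threshold. For correlations it means a small change in r, so weak ones could still change sign. Oxt with Agrp did so, with an r of 0.08 over all animals and -0.11 in batch 1. The causes were not tested.

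The count of members called in CRMP1+CRMP2 (1) became 0 with the litter as a random effect and 0 in batch 2 alone. Leaving out each litter gave 0 to 4, with Trh at -1.65 to -1.12. CRMP1+GDA (0) gave 0 to 1, and LDHA/B+CRMP1+STIP1 and STIP1+NSE 0 to 0. In the control batch comparison the 6 became 2 with the litter as a random effect, 1 with the hypothalamus score, and 4 to 6 without each litter, while the share of all genes called went from 41.5% to 22.5%, 11.5% and 31.3 to 41.9%. There Oxt ran from 3.12 to 4.57, Avp from 3.32 to 3.89, Hcrt from 2.96 to 3.67 (6 fits), Pomc from 1.22 to 1.51, Gal from 0.78 to 1.00 and Crh from -0.39 to -0.18. Of 45 relations, 33 passed over all animals, 10 in batch 1 and 18 in batch 2.

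Sign changes were among log2 differences that were not called in the main analysis, except Crh and Gal in the control batch comparison. For Oxt in exposed animals they were -0.15 (DESeq2), -1.14 (litter), -0.12 (batch and sex), -0.20 (batch 2) and -0.16 (score). For Oxt in LDHA/B+CRMP1+STIP1 they were -0.20 (DESeq2), -0.079 (litter), -0.29 (batch and sex), -0.32 (batch 2) and -0.14 (batch 1), and for Trh there -0.080 (batch and sex) and -0.36 (batch 1). In CRMP1+GDA Oxt took 0.26 (batch and sex), Trh 0.31 (batch and sex) and 0.24 (batch 2), and Pomc -0.074 without replicate 2. In STIP1+NSE the litter fit gave Oxt -0.34, Avp -0.30 and Pomc -0.092, the score gave Pomc -0.025, and Trh took 0.19 (batch and sex) and 0.17 (batch 2). With the score in the control batch comparison Trh was at -2.04, Crh at 0.20 and Gal at -0.36. Between males and females the litter fit gave Oxt -0.27, Avp -0.74, Trh -0.037 and Crh 0.0053. Depth limits Hcrt (0 to 56 counts per animal), Agrp (1 to 39) and Ghrh (0 to 31) most.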
